A study of Mus musculus with 9 samples.

Results

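The genes described here are the secreted and cell-surface molecules of axon guidance: ephrins and Eph receptors, semaphorins with neuropilins and plexins, Slits with Robo receptors, and netrins with Unc5 receptors. They were taken by gene symbol, without a filter on measured values. The members were chosen with earlier results of these data known. Every probe set was included whose platform annotation gave exactly 1 symbol of these families, which came to 116 probe sets for 64 genes, out of 29131 probe sets with 1 symbol for 15964 genes. The study compared 3 mouse stromal cell lines, untreated as far as the labels state. AGM-s3-A9 and AGM-s3-A7 come from the aorta-gonad-mesonephros (AGM) region of the embryo, and only the former is a line that supports hematopoiesis. OP9, from the calvaria of newborn mice, is the second supportive line, so OP9 differs from AGM-s3-A7 in tissue of origin as well as in supportive capacity. There is 1 array per line for each of 3 Affymetrix types with different probe sets, MG-U74A and its companions MG-U74B and MG-U74C. Where 3 values stand together without names below, the AGM-s3-A9 value comes first, then AGM-s3-A7, then OP9.

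Guidance molecules steer growing axons by attraction or repulsion, and the same molecules position blood vessels, neural crest cells and mesenchyme. Ephrins are tethered to the membrane and signal in both directions when an Eph receptor on a neighbouring cell binds them. Class 3 semaphorins are secreted and act through a complex of a neuropilin, which binds, and a plexin, which signals, whereas Slits act on Robo receptors and netrins on Dcc and Unc5 receptors. In bone marrow and embryonic stroma several of these pairs are known to act in cell contact, vessel growth and the retention of hematopoietic cells.

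With 9 arrays and 1 per line and type there were no replicates, so every difference is a description of these arrays, without a replicate error or a p-value. Intensities are given after quantile normalization within an array type. The detection level, the higher of the median of all values and the 95th percentile of blank controls, was 49.0 for MG-U74A; MG-U74B had 52.8 and MG-U74C 61.6. A probe set counted as higher or lower when the brighter line exceeded that level and the fold was at least 2, with a line at or below the level raised to it; such a fold is written "at least". Ratios of the same control probe set on the 3 array types had an SD of 0.36 on the log2 scale at intensities from 32 to 128 and 0.20 above 128, which is an error of hybridisation and does not cover separate cultures. Levels of different probe sets are not on a common scale and are not compared. Of 10 stromal markers 9, 9 and 8 were above the level, with summed levels of 20952, 22972 and 11124. Each sum takes the brightest reading of each gene and is set only against the same sum in another line. Bright collagen probe sets weigh most in the stromal sums, with Col1a1 at 6684, 6174 and 3539. The stromal marker Thy1 read 416, 206 and 4.61. Not all stromal markers were lowest in OP9: Fn1 read 501, 669 and 748, and Pdgfra 1187, 1720 and 1377 on its brightest probe set. Of 7 endothelial markers 0 were above the level in any line. Of 5 epithelial markers 2 (Cdh1 and Epcam) were above it in every line, with summed levels of 206, 252 and 215. Of 7 hematopoietic markers 1 (Cd34) was above it, in AGM-s3-A7, and of 5 glial markers 1 (Sox10), in every line. Of 12 neuronal markers 3, 2 and 3 were above it (Map2 and Tubb3 in each line, Stmn2 in both supportive lines), with summed levels of 1157, 713 and 1106, and the part of these other cell type markers in the results was not tested. The intermediate filament gene Vim, a stromal marker, read only 17.9 to 22.9 on its probe set, so a reading at or below the level does not show that a transcript was absent.

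The promoters of 4 genes on which the results turn are shown first, from 250 bases before to 50 after the annotated start, as given by RefSeq for GRCm38.p6; such an entry existed for 56 of the 64 genes. They were chosen with the values in view. Slit3 had the widest difference of all members, Efna5 the widest difference above AGM-s3-A7, Nrp2 was above the detection level in AGM-s3-A7 alone, and Efnb1 was lowest in AGM-s3-A7 on each of its probe sets. Capitals mark matches, on either strand, to the GC box GGGCGG, the CCAAT box and the TATA box TATAAA. Overlapping matches were allowed.

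Slit3 (chr11:35121206-35121505, plus strand): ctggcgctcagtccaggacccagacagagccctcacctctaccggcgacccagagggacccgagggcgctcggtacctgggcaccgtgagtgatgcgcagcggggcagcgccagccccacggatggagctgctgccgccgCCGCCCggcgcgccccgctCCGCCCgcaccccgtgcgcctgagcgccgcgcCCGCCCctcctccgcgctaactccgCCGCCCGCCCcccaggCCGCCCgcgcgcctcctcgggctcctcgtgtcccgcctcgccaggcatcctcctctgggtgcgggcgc

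Efna5 (chr17:62881268-62881567, minus strand): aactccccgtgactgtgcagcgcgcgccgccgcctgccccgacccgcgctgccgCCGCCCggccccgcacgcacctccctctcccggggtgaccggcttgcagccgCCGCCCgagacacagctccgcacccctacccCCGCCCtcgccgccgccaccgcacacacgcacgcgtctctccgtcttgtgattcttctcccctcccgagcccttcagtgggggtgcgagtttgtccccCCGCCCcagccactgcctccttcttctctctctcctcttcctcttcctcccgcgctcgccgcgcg

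Nrp2 (chr1:62703067-62703366, plus strand): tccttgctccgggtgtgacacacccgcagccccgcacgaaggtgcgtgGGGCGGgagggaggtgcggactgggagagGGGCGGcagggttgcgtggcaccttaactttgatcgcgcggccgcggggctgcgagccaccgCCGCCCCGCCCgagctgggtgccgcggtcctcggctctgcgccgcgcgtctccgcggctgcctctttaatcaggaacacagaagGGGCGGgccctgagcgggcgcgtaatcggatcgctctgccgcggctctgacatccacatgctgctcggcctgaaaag

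Efnb1 (chrX:99135811-99136110, plus strand): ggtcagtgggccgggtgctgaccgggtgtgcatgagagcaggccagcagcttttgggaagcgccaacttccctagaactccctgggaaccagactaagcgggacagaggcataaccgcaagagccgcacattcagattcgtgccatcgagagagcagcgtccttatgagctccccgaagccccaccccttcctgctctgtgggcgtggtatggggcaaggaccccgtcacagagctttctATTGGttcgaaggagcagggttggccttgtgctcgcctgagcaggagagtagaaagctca

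The Slit3 window held 6 GC boxes and 41 CpG dinucleotides, that of Nrp2 5 and 37, and that of Efna5 4 and 38. The Efnb1 window held 0 GC boxes, 1 CCAAT box and 14 CpG dinucleotides. None of the 4 windows held TATAAA, a statement about these letters in these windows only. A GC box was present in 35.7% of all 32851 RefSeq promoter windows of this length and in 72.2% of the 72 windows of member genes, and the median number of CpG dinucleotides was 7 and 19.5. The windows of Slit3, low in OP9, and of Efna5, high in OP9, thus both held several GC boxes. The number of GC boxes per window was not compared with that of all promoters.

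Of the 116 probe sets, 60 were above the detection level in at least 1 line, covering 41 of the 64 genes. By line, AGM-s3-A9 had 37 genes with a probe set above the level, AGM-s3-A7 had 31 and OP9 had 29. All 3 lines were above it on 30 probe sets, AGM-s3-A9 alone on 8, AGM-s3-A7 alone on 4 and OP9 alone on 7. Both AGM lines but not OP9 were above it on 7. The same counts by line were not made over all probe sets, so these numbers are no result about the members as a group. Here and below, less transcript per cell and fewer cells with the transcript cannot be told apart.

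OP9 against AGM-s3-A7 gave the most calls. Of 52 member probe sets detected in this pair, 10 were higher in OP9, for Efna5 (on 2 probe sets), Efnb1, Epha2, Epha7, Sema3a, Sema3c, Plxnb1, Plxnd1 and Ntn1. That is 19.2% of them, where 4.77% of all 13467 detected probe sets were higher. With 1 probe set per gene 7 of 35 members were higher, against 5.13% of all genes so counted. At a fold of 3 only 1 of 52 member probe sets was higher, beside 1.28% of all. Lower in OP9 were 5 member probe sets, for Slit3, Unc5c, Sema5a, Nrp2 and Efnb2, or 9.62% against 5.52% of all. The median log2 ratio of the members was -0.07, and that of all detected probe sets 0.03, so the members did not lie to one side as a group. With scaling on hybridization controls the calls were 12 and 5 for members, and 991 and 564 in place of 642 and 743 for all probe sets.

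AGM-s3-A9 against AGM-s3-A7, both AGM lines, gave fewer calls. Among 53 detected member probe sets 3 were higher in AGM-s3-A9, 2 of Efnb1 and 1 of Epha7, or 5.66% against 2.88% of all 13139. Lower were 4, for Sema3a (on 2 probe sets), Sema5a and Nrp2, or 7.55% against 2.18%. The balance of directions depended on the scaling, with 8 higher and 3 lower on values as deposited and 6 and 2 with hybridization control scaling; for all probe sets the counts were 379 and 286, 1513 and 493, and 844 and 178 in the same order. The median log2 ratio was 0.16 for members and -0.01 for all.

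Both supportive lines can also be set against each other. AGM-s3-A9 was higher than OP9 on 3 of 56 detected member probe sets, those of Slit3, Slit2 and Unc5c. That is 5.36%, near the 5.96% of all 13443 probe sets. It was lower on 5, for Efna5 and Sema3a on 2 probe sets each and for Epha2, or 8.93% against 4.63%. With values as deposited these counts were 10 higher and 7 lower, and 5 and 5 with hybridization control scaling. For all probe sets the counts were 801 and 622 in the main setting, 1667 and 1020 (11.9% and 7.29%) as deposited, and 911 and 615 with hybridization controls. The 3 pairs share arrays, so their counts are not independent.

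**Figure D1:**
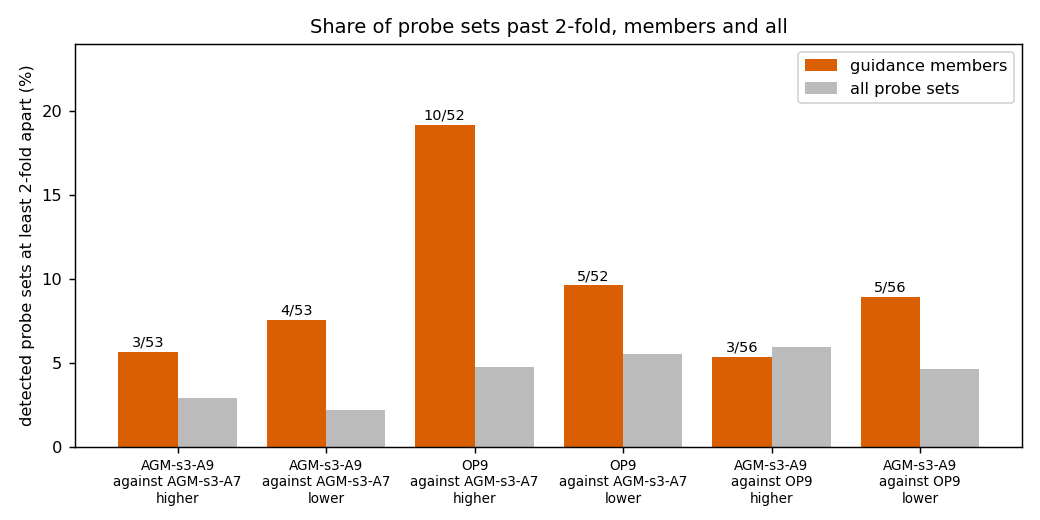
Percent of detected probe sets at least 2-fold higher or lower in each pair of lines, for the guidance members (orange, with the number called over the number detected) and for all probe sets (grey). The members' share was furthest from that of all probe sets for OP9 higher than AGM-s3-A7, at 19.2% against 4.77%, and near it for AGM-s3-A9 higher than OP9, at 5.36% against 5.96%.

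In all there were 30 calls, on 18 probe sets of 15 genes, and 11 of the 30 were bounds against a line at or below the detection level. All 30 kept their direction under 3 other scalings. Another detection level only moves the floor and cannot reverse a direction, so it does not test this. The fold stayed at 2 or more under the 3 scalings for 21 calls, and under these and a detection level 2 times as high for 11. Those 11 were Slit3 and the MG-U74B probe set of Efna5 in both pairs with OP9, Sema5a in both pairs with AGM-s3-A7, 1 probe set of Sema3a in both pairs with OP9, Efnb1 (MG-U74A) and Plxnd1 in OP9 against AGM-s3-A7, and Unc5c in AGM-s3-A9 against OP9. Each account below names the calls that another scaling ended.

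**Figure D2:**
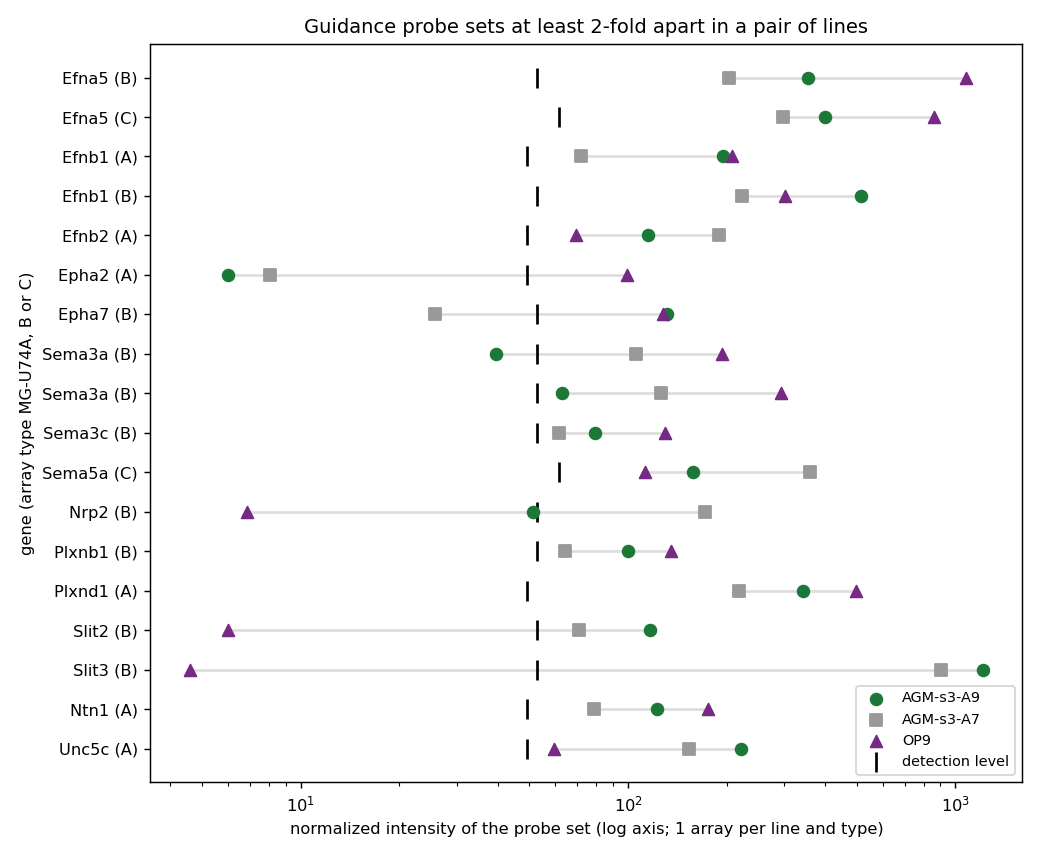
Normalized intensity (log axis) of the 18 guidance probe sets at least 2-fold apart in a pair, in AGM-s3-A9 (circles), AGM-s3-A7 (squares) and OP9 (triangles), with 1 array per point and the detection level of the array type as a bar. Slit3 in OP9 lies at 4.59, far below its values of 1213 and 906 in the AGM lines, and the Efna5 probe sets are highest in OP9.

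Among the ephrin ligands, Efna5 stood out. It encodes ephrin-A5, a ligand held by a lipid anchor that repels many axons. On MG-U74B it read 354 for AGM-s3-A9, with AGM-s3-A7 at 203 and OP9 at 1076. OP9 was thus 5.29-fold above AGM-s3-A7 and 3.04-fold above AGM-s3-A9. On MG-U74C, a separate hybridisation, it read 400.3, 298 and 862, with the same order of lines and with OP9 2.89-fold and 2.15-fold above the others. The MG-U74C fold over AGM-s3-A7 was 1.69 with values as deposited, and that over AGM-s3-A9 was also under 2-fold with those values and with 75th percentile scaling. Another probe set, on MG-U74A, stayed below the level in every line (13.1, 9.12 and 40.1).

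Efnb1 encodes ephrin-B1, a transmembrane ephrin with roles in craniofacial bone and in stromal cells. Its MG-U74A probe set read 195 for AGM-s3-A9, with AGM-s3-A7 at 71.8 and OP9 at 208, that is 2.72-fold and 2.90-fold above AGM-s3-A7 in the supportive lines. Its MG-U74B probe set read 514, 222 and 302. There AGM-s3-A9 was 2.31-fold above AGM-s3-A7 but OP9 only 1.36-fold. AGM-s3-A7 was the lowest line on both, and the probe sets differed on which supportive line was higher. The MG-U74B call fell short of 2-fold with values as deposited, at 1.73-fold.

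Efnb2, the ephrin-B2 gene and a marker of arterial endothelium in vessels, had the opposite order. It read 115 for AGM-s3-A9, with AGM-s3-A7 at 190 and OP9 at 69.6, and was 2.73-fold below AGM-s3-A7 in OP9. AGM-s3-A9 lay between the others, 1.65-fold above OP9. The 3 ephrin-B genes therefore did not move together: Efnb3, another transmembrane ephrin, read 97.7, 78.8 and 95.9 on its brighter probe set and reached 2-fold in no pair. Efna3, an ephrin-A gene, was highest in AGM-s3-A7 on MG-U74A, at 199, 395 and 273, a log2 ratio of -0.99 for AGM-s3-A9 that just missed the threshold. Its MG-U74B probe set was above the level in OP9 alone, at 64.8, so the probe sets disagreed on the order of OP9 and AGM-s3-A7. Efna2 was above the level only in AGM-s3-A9, at 59.5. Efna1 and Efna4 were at or below it in all lines.

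Of 9 Eph A receptor genes 3 were above the detection level in any line, and the other 6 (Epha1, Epha3, Epha5, Epha6, Epha8 and Epha10) in none. The same count was not made over all genes, so it is no result about this family. Epha7, a receptor for ephrin-A ligands, read 131 for AGM-s3-A9, with AGM-s3-A7 at 25.7 and OP9 at 128, at least 2.49-fold and at least 2.42-fold above AGM-s3-A7. The supportive lines were practically level with each other and the AGM-s3-A7 reading lay below the detection level. The AGM-s3-A9 call was lost with values as deposited. Its other probe sets, both on MG-U74A, read below the level in all lines, at most 28.3. Epha2, an ephrin-A receptor common in epithelium and in migrating cells, was detected only in OP9, at 99.5, where AGM-s3-A9 gave 6.01 and AGM-s3-A7 gave 8.07. The bound was 2.03-fold in each pair and fell below 2 with values as deposited. Epha4, which binds both classes of ephrin, read 64.6, 54.6 and 38.4 and was called in no pair.

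All 3 measured Eph B receptor genes were above the level in every line on at least 1 probe set, and 0 of their 4 probe sets were called. Ephb1 was highest in OP9 (82.1 for AGM-s3-A9, with AGM-s3-A7 at 77.8 and OP9 at 131). Ephb3 was lowest there (121, 138 and 74.6). Ephb6, a receptor without kinase activity, read 86.7, 91.2 and 14.9 on one probe set and 92.1, 92.5 and 81.3 on another whose suffix marks possible cross-hybridisation, so its level in OP9 is unsettled.

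Among the class 3 semaphorins, Sema3a was the member with most calls. It encodes semaphorin 3A, the secreted repellent that collapses growth cones through neuropilin 1 and that also acts in bone. On one MG-U74B probe set it read 62.7 for AGM-s3-A9, with AGM-s3-A7 at 126 and OP9 at 293. On the other it read 39.4, 106 and 193, and on MG-U74A 33.4, 50.9 and 77.8. The order OP9, AGM-s3-A7, AGM-s3-A9 was the same on all 3 probe sets. OP9 was 4.67-fold above AGM-s3-A9 on the first and at least 3.66-fold on the second; on MG-U74A the bound was 1.59-fold. Over AGM-s3-A7 it was 2.32-fold, 1.82-fold and 1.53-fold higher. AGM-s3-A9 was below AGM-s3-A7 by 2.01-fold on the first and at least 2.01-fold on the second, at the threshold, and both of these calls were lost under scaling by the 75th percentile and by hybridization controls, and the second also with values as deposited. Thus the supportive lines lay at opposite ends for this gene, with the non-supportive line between them.

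Sema3c encodes a secreted semaphorin of heart and vessel development. It read 79.3, 61.5 and 129 on one MG-U74B probe set and 169, 127 and 251 on the other, OP9 being 2.10-fold and 1.98-fold above AGM-s3-A7. The MG-U74A probe set was above the level in OP9 alone, at 54.3. All 3 probe sets thus had OP9 highest and AGM-s3-A7 lowest, and 1 of them passed the threshold. Sema3e, which signals through plexin D1 without a neuropilin, was above the level only in OP9, at 89.3, where AGM-s3-A9 gave 5.98 and AGM-s3-A7 gave 19.6, with a bound of log2 0.87 below the threshold. Sema3g, known from endothelium, was above it in AGM-s3-A9 alone, at 92.3. Sema3f read 57.3, 56.4 and 9.32, and Sema3d, on 1 of 3 probe sets, 61.8, 75.7 and 70.4. Sema3b was at or below the level throughout.

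Sema5a, a membrane semaphorin with thrombospondin repeats, was highest in the non-supportive line. On MG-U74C it read 158 for AGM-s3-A9, with AGM-s3-A7 at 361 and OP9 at 113, that is 2.28-fold and 3.20-fold lower in the supportive lines. On MG-U74A it exceeded the level only in AGM-s3-A7, at 60.02 against 29.6 and 20.5. The order of the lines was the same on both array types, although the second gave a bound of only 1.22-fold. Of the other semaphorins outside class 3, Sema4a, Sema4b, Sema4c, Sema4f, Sema4g and Sema6c were above the level in at least 1 line and called in no pair. The widest log2 ratio among them was -0.67, for Sema4b in AGM-s3-A9 against OP9 (78.2 against 124). Sema4d, Sema5b, Sema6a, Sema6b, Sema6d and Sema7a were at or below the level in all lines, Sema6a on each of 5 probe sets.

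The receptors of class 3 semaphorins differed between the neuropilins. Nrp2, the neuropilin preferred by semaphorin 3F and by the lymphatic growth factor VEGF-C, read 51.4 for AGM-s3-A9, with AGM-s3-A7 at 172 and OP9 at 6.87. It was at least 3.25-fold lower in each supportive line, and its AGM-s3-A9 reading lay just below the detection level of 52.8. A single probe set reads this gene. Nrp1, the receptor of semaphorin 3A and co-receptor of VEGF-A, was well above the level in every line on both probe sets, at 634, 494 and 395 on one and 265, 221 and 190 on the other. Its log2 ratios lay between -0.32 and 0.68, and both probe sets had AGM-s3-A9 highest and OP9 lowest.

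Among the plexins, Plxnd1, the receptor of semaphorin 3E, read 344 for AGM-s3-A9, with AGM-s3-A7 at 218 and OP9 at 495. OP9 was 2.28-fold above AGM-s3-A7, and AGM-s3-A9, 1.58-fold above it, lay between. Plxnb1, a receptor for semaphorin 4D that activates RhoA, had the same order on one MG-U74B probe set, at 100.2, 64.4 and 135, or 2.10-fold for OP9 over AGM-s3-A7. Another read 21.2, 32.1 and 70.3 and was above the level in OP9 alone. Plxnb2, a plexin present in many tissues, was lowest in OP9 on both probe sets and called in no pair. It read 483, 576 and 399.6 on one and 244, 212 and 166 on the other, which disagreed on the order of the AGM lines. The neuropilin partners Plxna1, Plxna2 and Plxna3 were called in no pair either; Plxna1 was highest in OP9, and Plxna2 and Plxna3 lowest there, on every detected probe set. Plxna4, Plxnb3 and Plxnc1 were at or below the level.

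The Slit ligands showed the widest gap. Slit3, a secreted ligand of Robo receptors made by mesenchymal cells and active in diaphragm, vessel and bone development, read 1213 for AGM-s3-A9, with AGM-s3-A7 at 906 and OP9 at 4.59. It was at least 17.1-fold below AGM-s3-A7 in OP9 and at least 23.0-fold lower than in AGM-s3-A9, while the AGM lines differed by 1.34-fold. Only 1 probe set reads it, and its suffix marks a set that can hybridise to members of a sequence family; the share of such signal was not tested. Slit2, a related ligand, had the same low reading in OP9, at 6.02, where AGM-s3-A9 gave 117 and AGM-s3-A7 gave 70.8 on MG-U74B. This was at least 2.21-fold above OP9 in AGM-s3-A9, a call lost with values as deposited, and at least 1.34-fold in AGM-s3-A7. Neither Slit gene detected in the AGM lines was above the level in OP9, and Slit1 was in no line. Of the 4 Robo receptor genes only Robo1 reached the level, at 52.7 for AGM-s3-A9, which is just above 49.0, with AGM-s3-A7 at 4.69 and OP9 at 27.5. Robo2, Robo3 and Robo4, the last known from endothelium, were at or below it in every line.

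Netrin 1, the secreted attractant of commissural axons and the product of Ntn1, read 123 for AGM-s3-A9, with AGM-s3-A7 at 78.6 and OP9 at 176. OP9 was 2.24-fold and AGM-s3-A9 1.56-fold above AGM-s3-A7. A second probe set of the gene, also on MG-U74A, read no more than 6.93 in any line. Ntn3 was near the level (63.01, 57.3 and 34.0), and Ntn4 at or below it. Among the netrin receptors, Unc5c, which mediates repulsion, read 221 for AGM-s3-A9, with AGM-s3-A7 at 154 and OP9 lowest at 59.3. It was 3.74-fold and 2.59-fold lower there than in the AGM lines. Unc5b, a receptor of vessel sprouts, read 358, 189 and 325, with log2 ratios of 0.92 and 0.78 for the supportive lines over AGM-s3-A7 that missed the threshold. Its other probe sets were at or below the level in all lines, and Unc5a exceeded it only in AGM-s3-A9, at 58.2.

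**Figure D3:**
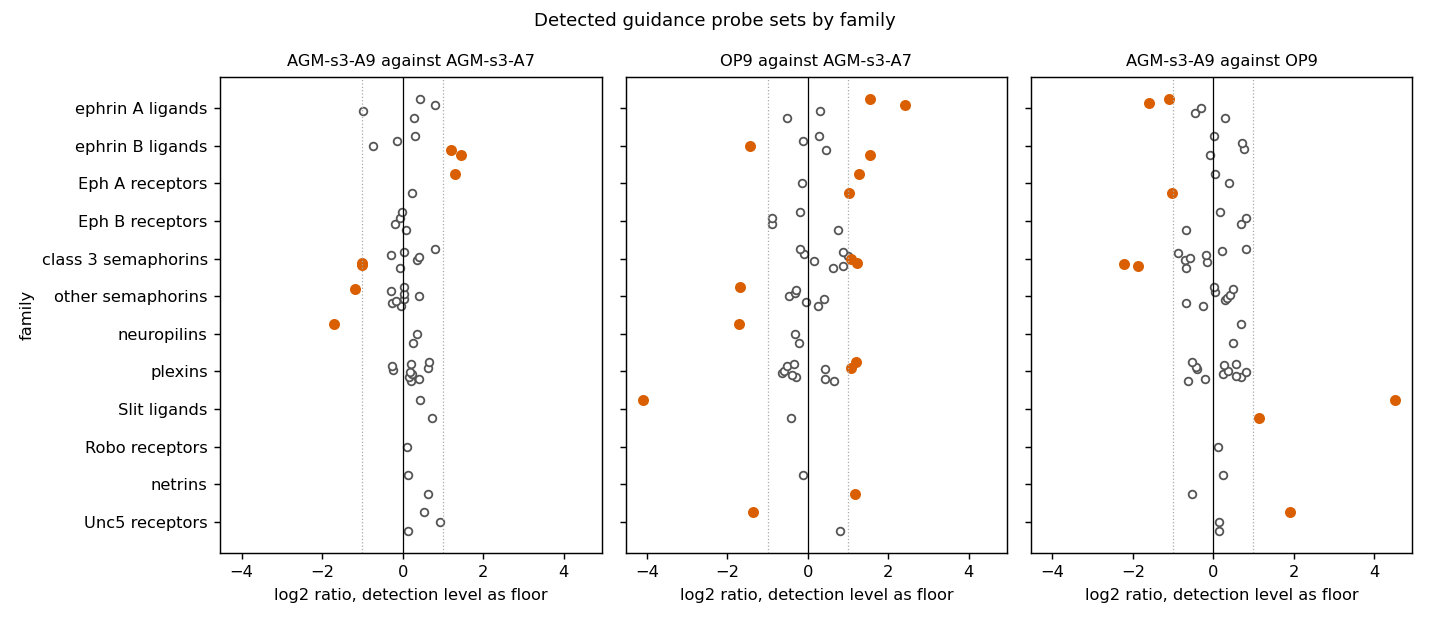
Log2 ratio of every detected guidance probe set by family in the 3 pairs of lines, with values at or below the detection level raised to it; filled points are at least 2-fold apart and dotted lines mark that threshold. Slit3 lies at -4.10 in OP9 against AGM-s3-A7, the ephrin A points at 1.53 and 2.40 in that panel are Efna5, and the plexins hold 2 called points there, Plxnd1 and Plxnb1.

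Agreement between probe sets of a gene gives a rough second measure of error. The ratios have the detection level as floor, so a span can set a ratio against a bound and differ from that of the measured values. For OP9 against AGM-s3-A7, 15 member genes had more than 1 detected probe set, and the log2 ratios of a gene spanned a median of 0.60 and at most 1.39, the latter for Sema5a. They had opposite signs for 3 genes, Efna3, Efnb3 and Sema4a, none of them called. The median span was 0.37 between the AGM lines over 12 genes and 0.45 for AGM-s3-A9 against OP9 over 13. In the former 3 genes had opposite signs (Efnb3, Plxna3 and Plxnb2), and in the latter 1, Efnb1. A fold near 2 on a single probe set is thus of the size by which probe sets of a gene can differ, which applies to Efnb2, Epha2, Epha7, Ntn1, Plxnd1, Slit2 and, for its 2.59-fold difference between OP9 and AGM-s3-A7, Unc5c, each read by 1 detected probe set.

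**Figure D4:**
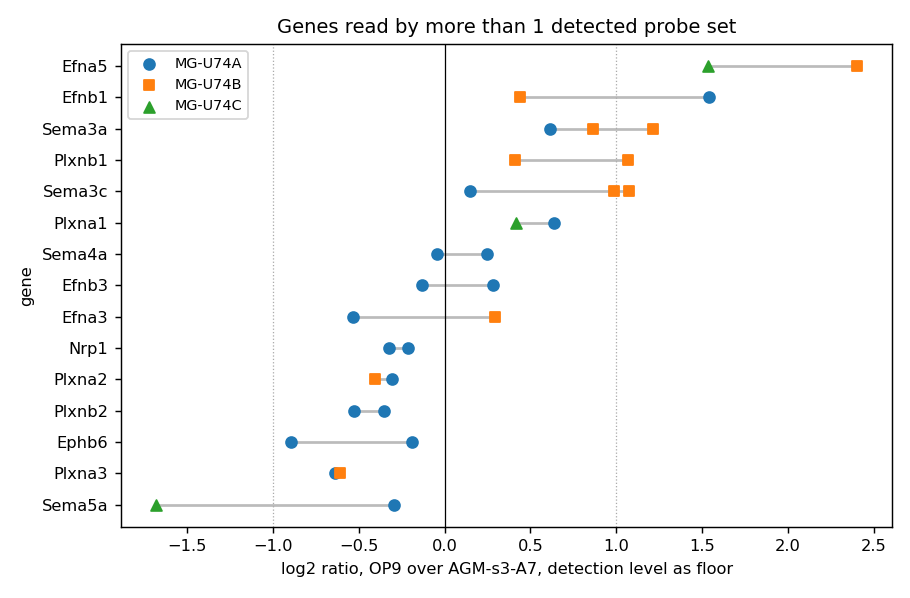
Log2 ratio of OP9 over AGM-s3-A7 for the 15 guidance genes with more than 1 detected probe set, 1 point per probe set with its array type, and the dotted lines at 2-fold. Values at or below the detection level are raised to it, so some points are bounds. Both Efna5 points lie beyond 2-fold, while for Sema5a, Efnb1, Sema3a, Sema3c and Plxnb1 1 probe set passes it and the others have the same sign.

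Other genes of guidance signalling were taken from 3 lists. Of the other ligands, receptors and co-receptors 10 of 23 measured genes were above the detection level, with 18 probe sets. In AGM-s3-A9 against AGM-s3-A7 1 was higher and 1 lower, in OP9 against AGM-s3-A7 1 and 0, and in AGM-s3-A9 against OP9 0 and 1. The shares of all probe sets given above for these pairs were 2.88% and 2.18%, 4.77% and 5.52%, and 5.96% and 4.63%, so calls this few are no result about the list. Ptk7, a receptor-like protein of cell polarity that takes part in semaphorin signalling, read 354 for AGM-s3-A9, with AGM-s3-A7 at 159 and OP9 at 316, 2.23-fold and 1.99-fold above AGM-s3-A7. Gpc1, a heparan sulfate proteoglycan that binds Slit, was 2.23-fold above AGM-s3-A7 in OP9 on MG-U74A (892 against 400.5) and level on MG-U74C (255 against 260.4). Rtn4, the gene of the myelin inhibitor Nogo, lay 2.53-fold below AGM-s3-A7 in AGM-s3-A9 on 1 of 3 detected probe sets (63.8, 161 and 84.9), while another read 783, 1019 and 972. Met, the receptor of hepatocyte growth factor, read 142, 222 and 299 and AGM-s3-A9 lay 2.11-fold below OP9. Neo1, a netrin and repulsive guidance molecule receptor, was detected in all lines and called in none of the pairs. Dcc, the attractive netrin receptor, was not among the genes above the level.

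Of the VEGF ligands and receptors, 4 of 8 genes were above the level, all of them ligands. The one call among 5 detected probe sets was Vegfd, 2.19-fold higher in AGM-s3-A9 than in OP9 (209 against 95.5, with 180.1 in AGM-s3-A7). In that pair 5.96% of all probe sets were higher, so 1 call is no result about the list. Vegfc, a ligand of neuropilin 2, read 67.6, 65.3 and 2.08, and Vegfa, a ligand of neuropilin 1, read 115, 73.9 and 126 on MG-U74A.

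Of the genes that relay guidance signals inside the cell, 39 of 51 measured genes were above the level, on 65 probe sets. In OP9 against AGM-s3-A7 1 of 64 detected probe sets was higher and 5 were lower, where the shares of all probe sets were 4.77% and 5.52%. Srgap1, whose product links Robo receptors to Cdc42, was one of the lower ones, at 148 for AGM-s3-A9, with AGM-s3-A7 at 121 and OP9 at 8.69, at least 2.29-fold below AGM-s3-A7 and at least 2.81-fold below AGM-s3-A9. The other lower ones were Ablim1 (96.5, 139 and 54.8 on the called probe set), the Src-family kinase gene Fyn (85.3, 153 and 72.8), the adaptor gene Grb7 (56.6, 133 and 53.9) and Dpysl3. The higher one was the kinase gene Abl2 (91.4, 76.9 and 170). Dpysl3, of the collapsin response mediator family that acts in semaphorin signalling, was called on 1 probe set (110 in AGM-s3-A7 against 22.5 in OP9), and another was level at 314 and 354. In AGM-s3-A9 against AGM-s3-A7 1 of 62 was higher, beside 2.88% of all, and 2 were lower (Dpysl3 and Grb7), beside 2.18%. The higher one was Limk1, a kinase that acts on cofilin, at 109, 54.2 and 56.9 on 1 probe set and 375, 317 and 395 on another. In AGM-s3-A9 against OP9 1 of 63 was higher (Srgap1), beside 5.96% of all, and 2 were lower, beside 4.63%. Both were of the kinase gene Gsk3b, at 47.2, 61.6 and 113 and at 101, 141 and 219, and its other detected probe set read 77.4, 77.3 and 115. The median log2 ratio of this list lay between -0.12 and -0.07 in the 3 pairs, beside -0.03 to 0.03 for all detected probe sets.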

How the data were processed

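Gene expression was measured on 9 Affymetrix arrays. The authors deposited intensities on a linear scale, with 1 value for every probe set of an array; which software and scaling produced them is not given in the sources used here. Per the labels' protocols, biotinylated cRNA was made from total RNA. Trimmed means of arrays of 1 type lay up to 61.1% (MG-U74A), 49.8% (MG-U74B) and 49.7% (MG-U74C) apart, above a limit of 5%, so log2 intensities were quantile normalized within each array type; a shift of all transcripts would be removed. Symbols came from the platform annotation; gene IDs of all 64 genes matched RefSeq (GRCm38.p6), with 0 symbols changed. Blank controls were 34 probe sets per type. Calls used a fold of 2 against the detection level, within an array type only. Member genes called in a pair, or brightest for their family, were given with values; the rest were named or counted. There was no test, and each line and type has 1 array, which limits the precision. Scripts were tested on simulated data (Python 3.11.15, numpy 2.4.6, pandas 2.3.3). The members and lists were chosen with earlier results of these data known.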

Additional observations from a re-analysis of the deposited data

How the results depend on the processing

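The main limits are the single array per line and type, the nearness of many members to the detection level, and the scaling. Against quantile normalization, values as deposited moved the median log2 ratio of all probe sets to 0.13 (AGM-s3-A9 against AGM-s3-A7) and 0.15 (AGM-s3-A9 against OP9), and hybridization control scaling moved it to 0.19 in both pairs with AGM-s3-A7. Under 75th percentile scaling the member counts stayed within 1.5 times, while 3 counts in the pathway lists moved between 0 and 1. The cause of the following changes was not tested, except that a lower fold or level passes more probe sets by construction. Between the AGM lines (AGM-s3-A9 over AGM-s3-A7), 3 higher became 8 with values as deposited, 6 with hybridization control scaling, 7 with the array median as detection level, 1 at 2 times the level, 10 at a fold of 1.5 and 0 at a fold of 3; 4 lower became 2 with hybridization control scaling, 1 at 2 times the level and 1 at a fold of 3. Its median of 0.16 became 0.39 with values as deposited, 0.35 with hybridization control scaling and 0.27 with the array median. For OP9 against AGM-s3-A7, 10 higher became 5 at 2 times the level, 17 at a fold of 1.5 and 1 at a fold of 3, and 5 lower became 2, 9 and 3. The detected members numbered 30, 52 and 52. Of all probe sets 4.35%, 13.7% and 1.28% were higher and 4.90%, 13.1% and 2.04% lower in the same order. The 1 higher call at a fold of 3 is thus near the share of all. The median of -0.07 for this pair became 0.18 with hybridization control scaling and 0.15 at 2 times the level. For AGM-s3-A9 against OP9, 3 higher became 10 with values as deposited, 5 with hybridization control scaling, 10 with the array median and 11 at a fold of 1.5, and 5 lower became 8 with the array median, 3 at 2 times the level, 11 at a fold of 1.5, 3 at a fold of 3 and 3 with 1 probe set per gene. The detected members numbered 58, 60, 72 and 56 for higher, and 72, 30, 56, 56 and 39 for lower. Of all probe sets 11.9%, 6.63%, 7.66% and 13.1% were higher in the same order. Those lower were 6.77%, 4.36%, 14.1%, 1.17% and 5.02%. Of the 30 calls, 22 were made with values as deposited, 27 with 75th percentile scaling, 28 with hybridization control scaling, 14 at 2 times the level and 10 at a fold of 3. Without cross-hybridisation suffixes 28 calls were left, those of Slit3 dropping out, and on MG-U74A and MG-U74B alone 26. Of the log2 ratios of called probe sets under these alternatives, 188 moved by less than the control SD and 39 by more. The 188 include ratios under settings that only leave out probe sets, which cannot move. Below an intensity of 32 that SD was 1.11, so large moves can count among the 188. Slit2 in AGM-s3-A9 against OP9 did so, falling from log2 1.14 to 0.14 at 2 times the level. Under the scalings 0 changed sign, and a change of level cannot change it. Of counts in the pathway lists 112 stayed within 1.5 times and 68 did not.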

Other observations

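Some probe sets at or below the detection level repeated the order of lines seen on a detected probe set of their gene, and others did not. Neither kind was counted, and these are values only. For Epha7, both MG-U74A probe sets had AGM-s3-A9 highest and AGM-s3-A7 lowest, at 18.7, 1.43 and 10.2 and at 28.3, 5.37 and 14.1 in the order AGM-s3-A9, then AGM-s3-A7, then OP9, as on MG-U74B. For Slit2 the MG-U74C probe set read 44.9, 16.8 and 8.99 in the same line order. Efna5 on MG-U74A, at 13.1, 9.12 and 40.1, again had OP9 highest. Plxnb1 on MG-U74C, at 18.3, 5.37 and 26.3, had OP9 highest and AGM-s3-A7 lowest. Among those with another order were the undetected probe sets of Unc5b, at 8.66, 9.64 and 52.7 and at 3.90, 4.95 and 10.1. They had AGM-s3-A9 lowest, where the detected one had it highest. The undetected Ntn1 probe set, at 2.25, 4.39 and 6.93, had AGM-s3-A9 and not AGM-s3-A7 lowest. Efna3 on MG-U74C, at 27.5, 22.7 and 13.4, had AGM-s3-A9 highest, where MG-U74A had AGM-s3-A7 highest. At intensities below 32 the control ratios had an SD of 1.11 on the log2 scale, so such readings carry little weight.

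The glial transcription factor gene Sox10 read 78.8, 87.8 and 88.6 on MG-U74A and 96.0, 82.9 and 104 on MG-U74B in that order of lines, above the level in each, but another MG-U74A probe set of the gene read no more than 3.08; the myelin gene Mbp read 29.8, 35.03 and 40.4. The neuronal microtubule gene Map2 read 243, 54.4 and 139 on 1 probe set, and its 2 others read no more than 15.4 in any line. Synaptic genes were near the bottom of the scale, with Snap25 at no more than 2.35 and Syp at no more than 8.73.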
